A study of Mus musculus with 9 samples.

Results

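The comparison of ovalbumin-challenged with saline-challenged lung takes 6 of the 9 arrays of a mouse asthma study: 3 from OVA-challenged lung, whose titles give 24 h, and 3 from saline-challenged lung. All 12422 probe sets that are not Affymetrix controls entered, after each array was scaled to a common 2% trimmed mean. Each of the groups came from lung of the C57BL6 strain in a model of asthma induced with ovalbumin (OVA, the egg-white protein used as allergen), and total RNA was measured on expression arrays. The remaining group, 3 arrays of OVA-challenged mice given an agonist of the prostaglandin receptor EP3, was not compared. Its arrays entered the common scale, the detection limit, the choice of probe sets to test and the estimate of the spread between arrays. The labels give no time for the saline group, and neither sex, age nor dose for any group. They do not say whether the saline-challenged mice had been sensitised, or whether the arrays of a group are separate mice, so the p-values measure the spread between these arrays, which may be technical.

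In allergic airway disease, type 2 helper T cells and innate lymphoid cells release cytokines that act through STAT6 and draw eosinophils into the airway wall. Epithelial cells respond with mucus and chemokines, macrophages take on the state called alternative activation, and smooth muscle contracts more readily. In a piece of whole lung, RNA from recruited blood cells is measured together with that of the alveolar wall, the vessels and the airway lining. A lower level of a cell type's genes can then mean fewer of those cells or less RNA per cell, and these cannot be told apart here.

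The arrays were of lung. Genes of the alveolar and airway lining and of endothelium were bright on all 6 arrays, with Sftpc, the surfactant protein C of alveolar type 2 cells, between 10138 and 14983. Ins2 of the pancreas lay at or near 0 on every array, Alb of the liver exceeded the detection limit of 44.9 on 1 array of 6, and Myh6 of heart muscle was detected on all 6, at 162 to 387. The ratio of 3′ to 5′ control probe sets, a sign of RNA breakdown, ran from 1.34 to 1.45 for beta-actin and from 1.08 to 1.15 for Gapdh, and overlapped between the groups. On each array 59.7% to 60.1% of the probe sets lay above the detection limit, which is the 40th percentile of all scaled intensities. Shares near 60% follow from that choice on a common scale, so they do not show equal detection between arrays.

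Of 7916 probe sets tested with limma, 752 differed between OVA and saline lung at a Benjamini-Hochberg adjusted p of at most 0.05, a share of 9.5%. Of these, 402 were higher in OVA lung (5.08% of those tested) and 350 lower (4.42%). The rises were the larger changes, with a median of 1.97-fold against 1.53-fold for the falls, and 193 of the 402 rises but 48 of the 350 falls reached 2-fold. Among probe sets detected on all 6 arrays, where no value below the limit enters, 103 of 300 rises and 15 of 300 falls were of 2-fold or more. In 65 of the called rises every saline array was below the detection limit and every OVA array above it, and in 22 of the called falls the reverse held. The 6 arrays separated into groups without overlap for 37.5% of the tested probe sets. Counted by gene, with the brightest probe set standing for each of 5949 genes, 565 were called (9.5%), 287 higher (4.82%) and 278 lower (4.67%). Scaling to equal array medians gave 315 and 199. The median log2 change of all genes was −0.08. The shares of 4.82% higher and 4.67% lower are the measure for the counts of each list of genes below.

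**Figure D1:**
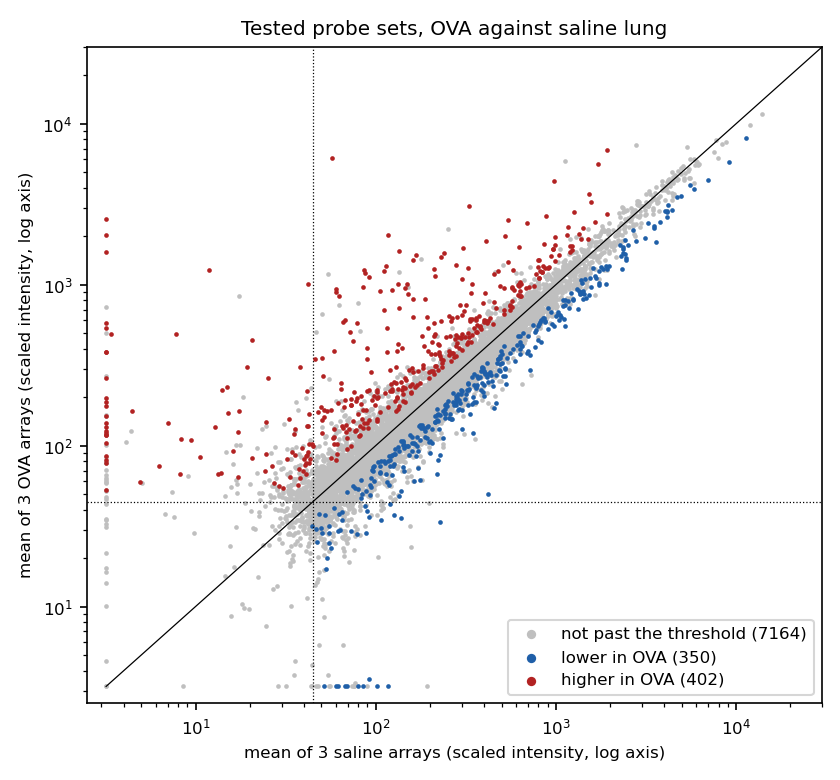
Mean scaled intensity of the 3 OVA arrays against that of the 3 saline arrays, both on log axes, 1 point per tested probe set, with means under the floor of 3.19 drawn at the floor. Dotted lines mark the detection limit of 44.9 and the solid line equal means; the 402 probe sets called higher reach far above the line at low saline intensity, while most of the 350 called lower lie close under it, 48 of them at 2-fold or more.

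The 3 OVA arrays did not differ from saline by equal amounts. Among the 402 called rises, OVA replicate 3 was the OVA array nearest to saline for 261, OVA replicate 2 for 91 and OVA replicate 1 for 50. Among the 350 called falls the counts were 234, 72 and 44. Without OVA replicate 3 the number of calls was 624, against 110 without OVA replicate 1 and 142 without OVA replicate 2, and 496 without agonist replicate 2. Dropping saline replicates 1, 2 or 3 left 151, 135 or 128 calls. With all 9 arrays left out in turn, 84 probe sets (65 higher, 19 lower) passed every time. Some of them have a whole group under the floor. Leaving out 1 array of that group changes nothing in it. Which calls held in each of these fits is given with each group of genes.

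Of 17 tested chemokines, the secreted signals that direct leukocyte movement, 8 rose, 1 fell and 8 did not pass, with a median log2 change of 0.60 against −0.08 over all genes. Ccl8, an attractant of monocytes and type 2 T cells, read 50.4, 35.8 and 40.2 on saline replicates 1, 2 and 3 and 1266, 1071 and 701 on the OVA replicates. The lowest OVA array stood far above the highest saline array, and the fitted rise was 23.6-fold (log2 4.56 ± 0.77 SE, adjusted p = 0.0194). Ccl9, which attracts dendritic cells, went from 83.4, 28.6 and 69.6 to 1029, 1092 and 593 (15.9-fold, adjusted p = 0.0115), again with OVA replicate 3 the lowest of the challenged arrays. Ccl6, a macrophage chemokine already bright in saline lung at 459.6, 459 and 516, reached 1125, 1419 and 1085 and rose 2.51-fold (adjusted p = 0.0115). Ccl7, another ligand of the monocyte receptor Ccr2, was below detection in saline lung and stood at 131, 139 and 54.5 in OVA lung, a rise of at least 2.22-fold (adjusted p = 0.0415). For Cxcl9, a T cell attractant that interferon gamma induces, the order of arrays was the other way, with 53.7, 46.7 and 159.7 on OVA replicates 1, 2 and 3 and nothing detected in saline lung (at least 1.64-fold, adjusted p = 0.0455). The chemokine that fell was Cxcl14, which was named after its values were seen, from 315, 309.9 and 366 to 198, 218 and 258 (1.48-fold lower, adjusted p = 0.0478). Ccr2 itself was the 1 called member of 10 tested chemokine receptors, at 159, 149 and 84.6 in saline and 399.8, 414 and 350.1 in OVA lung (3.07-fold, adjusted p = 0.0287). Of these 7 called chemokine and receptor genes, Ccl9 and Ccl6 held whichever of the 9 arrays was dropped. Dropping saline replicates 1, 2 and 3 lost 5, 5 and 5 calls, and dropping OVA replicates 1, 2 and 3 lost 5, 5 and 2, and 1, 3 and 1 without agonist replicates 1, 2 and 3. Adjusted p then reached 0.147, for Cxcl14.

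Ccl17, the ligand of Ccr4, had the largest log2 change of the 17 tested chemokines (7.48 ± 0.16 SE): all 3 saline arrays lay below 0, at −103, −115 and −112, and the OVA arrays read 655, 656 and 427, at least 12.7-fold (adjusted p = 4.59e-07). Because a group lying wholly under the floor is set to 1 value, as happened to its saline arrays, the error of such a gene reflects the other groups and its p-value is too small. Its promoter is shown because Ccl17 is known as a STAT6 target. It is the 250 bases before the RefSeq start in GRCm38.p6 at chr8:94810203-94810452 on the plus strand, with the spacing that STAT6 favours (TTC and GAA with 4 bases between) in capitals, 154 bases before the start.
Ccl17: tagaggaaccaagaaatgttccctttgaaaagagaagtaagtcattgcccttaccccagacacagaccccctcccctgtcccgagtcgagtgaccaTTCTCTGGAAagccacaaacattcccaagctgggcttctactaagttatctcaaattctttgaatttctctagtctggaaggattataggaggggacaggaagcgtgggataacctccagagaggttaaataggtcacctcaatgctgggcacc
Either strand of this window held that spacing in 14 of 226 promoters of genes called higher (6.19%) and in 15 of 224 of genes called lower (6.7%). The share was 5.29% among the 4761 genes tested on the array with a promoter entry and 6.76% among the 27025 genes in the promoter table. A match is a description of the letters, not of a site in use.

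Genes listed as marks of alternatively activated macrophages, the state that interleukin 4 and 13 induce, rose in 8 of 13 tested cases, with 0 falls and a median log2 change of 1.71. Which cells of the lung carried these genes was not measured. Fbp1, the fructose bisphosphatase of gluconeogenesis, lay below 0 in saline lung (−15.3, −27.0 and −25.2) and read 441, 399 and 304 in OVA lung, a rise of at least 8.39-fold (adjusted p = 3.7e-07). Chia1, the acidic chitinase that breaks down chitin, read 370.5, 271 and 349.6 in saline and 3271, 3779.8 and 2251 in OVA lung, 9.25-fold higher (log2 change 3.21 ± 0.44 SE, adjusted p = 0.0115). Chil3, the chitinase-like protein Ym1 that forms crystals in allergic airways, was already at 1638, 1783 and 1705 in saline lung and rose 3.28-fold to 5303, 6143 and 5400.2 (adjusted p = 0.0185). Both chitinase-family genes separated the groups without overlap, as 37.5% of all tested probe sets did. The rule that named Chia1 required this and Chil3 was named for its small p, so the separation adds no support. Mrc1, the mannose receptor, went from 134, 170.1 and 172 to 347, 322 and 246 (1.91-fold, adjusted p = 0.0450). Adam8, a membrane protease of leukocytes that stands in the metalloproteinase list, was undetected in saline lung (36.0, 8.50 and −2.67) and read 239, 275 and 153 in OVA lung (at least 4.81-fold, adjusted p = 0.0236). Arginase had 2 forms on the array, and both rose: Arg1 from 1.46, 6.27 and 2.43 to 632, 714 and 136 (at least 8.80-fold, adjusted p = 0.00942) and the mitochondrial Arg2 from 35.7, 32.5 and 44.7 to 76.7, 76.7 and 60.8 (at least 1.58-fold, adjusted p = 0.0476). Gatm, which uses arginine to start creatine synthesis, rose from 53.2, 46.8 and 38.1 to 388, 409.7 and 244 (7.42-fold, adjusted p = 0.0239), and these 3 were the only called members of 16 tested arginine and polyamine genes. For Arg1, OVA replicate 3 stood far below the other two OVA arrays and still above every saline array. For Fbp1 every saline array and for Arg1 all but 1 lay under the floor, so fits without 1 saline array say little of these genes. Among these 8 genes, Fbp1, Chia1 and Arg1 passed in each of the 9 fits that drop 1 array. The calls lost were 4, 5 and 5 without saline replicates 1, 2 and 3 and 5, 5 and 1 without OVA replicates 1, 2 and 3, and 1, 1 and 0 without agonist replicates 1, 2 and 3. Arg2 had the highest adjusted p among these fits, 0.146.

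**Figure D2:**
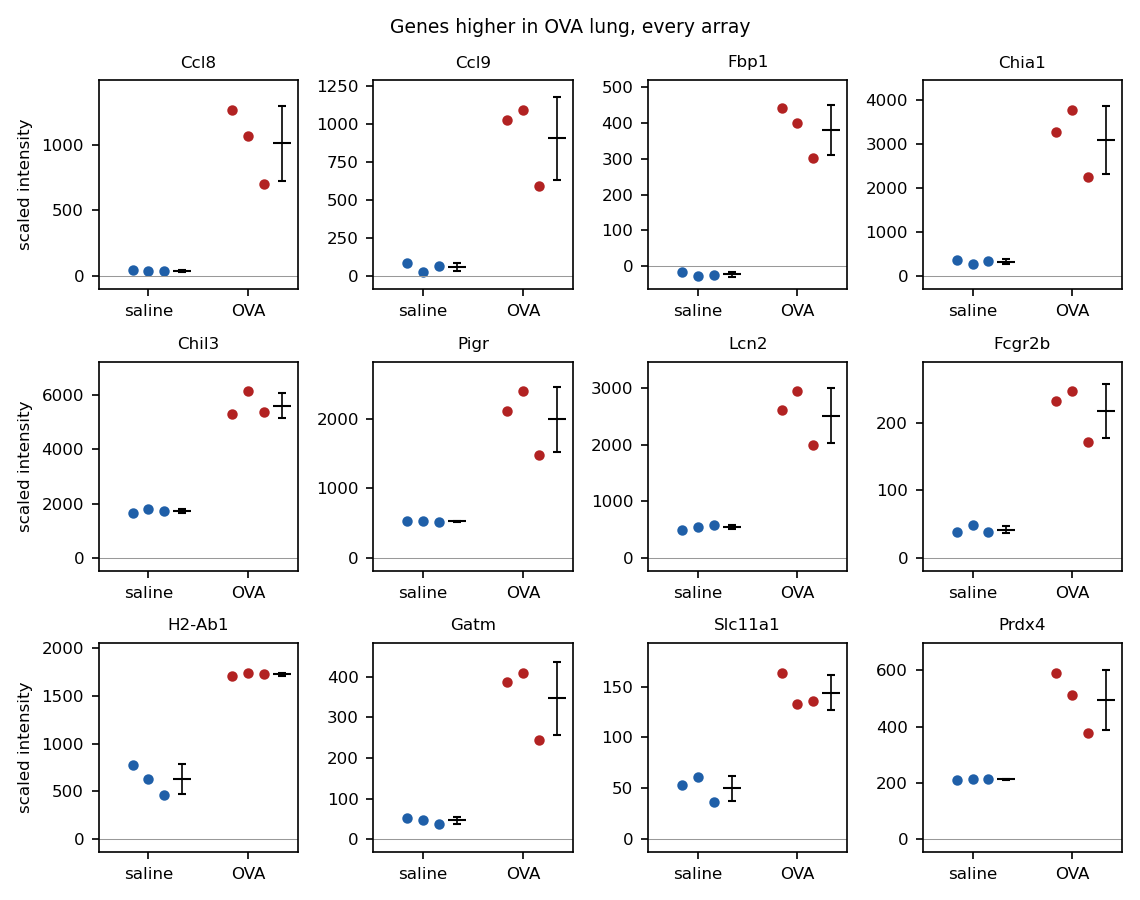
Scaled intensity of 12 genes higher in OVA lung on each array, saline replicates 1 to 3 in blue and OVA replicates 1 to 3 in red from left to right, with the mean and SD of 3 arrays in black. Each axis is linear and includes 0; the groups are apart in every panel, and OVA replicate 3 is the lowest OVA array for Ccl8, Ccl9, Fbp1, Chia1, Pigr, Lcn2, Fcgr2b, Gatm and Prdx4.

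Of 11 tested cytokines 1 passed (9.09%, against 4.82% called higher among all genes). It was Il1rn, the secreted blocker of the interleukin 1 receptor, which was below detection in saline lung and read 127, 216 and 48.7 in OVA lung, a rise of at least 2.46-fold (adjusted p = 0.0429). Of 23 tested cytokine receptors 2 passed (8.70%, against the same 4.82%), both of myeloid growth factors. Csf1r rose from 398, 452 and 412 to 643, 536 and 595 (1.40-fold, adjusted p = 0.0427) and Csf2ra from 147, 129 and 85.2 to 342, 287 and 255 (2.49-fold, adjusted p = 0.0464). In both the groups lay apart, as they did for 37.5% of all tested probe sets. Both were named for a small p, so this adds no support. Most cytokines that define the allergic response could not be judged: no array exceeded the detection limit for Il4, Il6, Il10, Ifng, Tnf or Csf2, and Il13 exceeded it on 2 of the 9 arrays, at 33.7, 46.6 and 9.34 in saline and 38.9, 57.9 and 38.1 in OVA lung. The eosinophil granule genes Prg2 and Epx and the eotaxin receptor Ccr3 were likewise below the limit on every array, as were Ptger1 and Ptger3, the receptors EP1 and EP3. Ptger4 (EP4) was below it on every saline array (12.9, 9.24 and 12.5) and read 80.4, 75.2 and 33.0 in OVA lung, above the limit on 2 arrays, 1 fewer than a test required. Ptger2 (EP2) read 46.4, 54.4 and 43.4 and 50.9, 62.1 and 60.5, with overlapping groups (log2 change 0.27 ± 0.13 SE, adjusted p = 0.200). Of the 3 called genes here, 0 stayed called without any 1 of the 9 arrays. Without saline replicates 1, 2 and 3 in turn 3, 3 and 3 calls were lost, and 3, 3 and 2 without OVA replicates 1, 2 and 3, and 3, 1 and 0 without agonist replicates 1, 2 and 3. The highest adjusted p in these fits was 0.146 (Csf2ra).

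Mucus and goblet cell genes rose in 8 of 13 tested cases and fell in 0 (median log2 change 0.75). Clca1, secreted with mucus, was near the detection limit in saline lung at 63.2, 61.3 and 47.8 and among the brightest genes in OVA lung at 5529, 6998 and 5966 (108-fold higher, adjusted p = 0.0115). Pigr, the receptor that carries IgA and IgM across epithelium, read 532, 524 and 513 in saline and 2113, 2402 and 1481 in OVA lung, 3.75-fold higher (log2 change 1.91 ± 0.35 SE, adjusted p = 0.0225). The saline arrays of Pigr lay close together and the OVA arrays were spread, with OVA replicate 3 the lowest. Enzymes that build mucin sugars changed by less: St3gal4, a sialyltransferase, rose from 212, 225 and 241 to 433, 401 and 313 (1.68-fold, adjusted p = 0.0269) and Gcnt1, which branches O-glycans, from 58.9, 58.4 and 53.0 to 85.4, 89.0 and 75.1 (1.46-fold, adjusted p = 0.0265). Muc1, a membrane mucin of alveolar and airway cells, went from 1482, 1447 and 1618 to 1855, 1985 and 1944 (1.27-fold, adjusted p = 0.0371). The gel-forming mucin Muc5ac exceeded the limit on 1 array, OVA replicate 1, at 52.6, 25.7 and −6.65 on the OVA and below 0 on the saline arrays, and the goblet cell regulators Spdef and Foxa3 were not detected on any array. Of the 5 called genes in this group, Clca1 kept the call in all 9 leave-out fits. Leaving out saline replicates 1, 2 and 3 ended 4, 4 and 4 calls, and OVA replicates 1, 2 and 3 4, 4 and 1, and 1, 1 and 0 without agonist replicates 1, 2 and 3. For Muc1 the adjusted p rose to 0.114.

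Of 15 tested genes of club cells, the secretory and detoxifying cells of the small airways, 8 fell and 2 rose (median log2 change −0.52). With equal array medians 4 fell. Their main secretory product, Scgb1a1, was not called: it read 10315, 13252 and 12261 in saline and 8739, 11445 and 9224 in OVA lung with overlapping groups (log2 change −0.29 ± 0.13 SE, adjusted p = 0.199), and is given as a gene of the tissue check. All 8 falls were in enzymes that oxidise or conjugate foreign compounds or aldehydes. Cyp2f2 fell from 3360.0, 3880.5 and 3490.4 to 1649, 1781 and 2070.2 (1.96-fold lower, log2 change −0.97 ± 0.14 SE, adjusted p = 0.0115), Cyp4b1 from 3519, 3863 and 3897 to 2293, 2369 and 2691 (1.54-fold, adjusted p = 0.0308) and the flavin monooxygenase Fmo1 from 1698, 1635 and 1676 to 976, 1051 and 1264 (1.53-fold, adjusted p = 0.0379). The glutathione transferases Gstm1, Gstm2 and Gsta3 were 1.57-fold, 1.44-fold and 1.58-fold lower, and members of this family share sequence that a probe set may not separate. Gstm3, of the glutathione list, was 1.86-fold lower (adjusted p = 0.0252), while a dimmer probe set of it did not pass (log2 change 0.07, adjusted p = 0.849). Gsto1, a transferase of another class, went the other way, from 1042, 1033 and 877 to 1827, 1658 and 1819 (1.80-fold higher, adjusted p = 0.0135). Over the wider list of 22 tested cytochrome P450 and drug metabolism genes, which holds several of these again, 8 fell and 1 rose. With equal array medians 4 of these 22 fell. Cyp2e1, which metabolises ethanol and small solvents, fell from 297, 289 and 458 to 115, 123 and 119 (2.86-fold, adjusted p = 0.0142), and Cyp7b1, an oxysterol hydroxylase, rose from 73.9, 101 and 48.4 to 149, 148 and 130.2 (2.00-fold, adjusted p = 0.0450). Limma called 0 of 10 tested ciliated cell genes, with 1 at an unadjusted p of at most 0.05. Of the 10 called genes here, Cyp2f2 held whichever of the 9 arrays was dropped. Dropping saline replicates 1, 2 and 3 lost 7, 6 and 7 calls, and dropping OVA replicates 1, 2 and 3 lost 9, 7 and 2, and 1, 4 and 1 without agonist replicates 1, 2 and 3. Adjusted p then reached 0.137, for Cyp7b1.

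Macrophage and dendritic cell genes rose in 11 of 23 tested cases and fell in 1. Fcgr2b, the inhibitory receptor for IgG, read 38.7, 47.9 and 38.6 in saline and 233, 247 and 172 in OVA lung, 5.17-fold higher (log2 change 2.37 ± 0.30 SE, adjusted p = 0.00959), and the lectin Lgals3 (galectin 3) went from 323, 355 and 330.1 to 926, 919 and 802 (2.62-fold, adjusted p = 0.00959). Itgax, the CD11c integrin chain of alveolar macrophages and dendritic cells, rose from 288, 274 and 128 to 592, 686 and 496 (2.71-fold, adjusted p = 0.0308). The fall was in Lyz2, lysozyme, which alveolar type 2 cells make as well as macrophages, from 5149, 5884 and 5727 to 3637, 4207 and 4644 (1.35-fold, adjusted p = 0.0490). Of 32 tested lysosome and cathepsin genes 11 rose and 0 fell. Cathepsin Z (Ctsz) went from 257, 258 and 268 to 558, 663 and 554 (2.26-fold, adjusted p = 0.00892), cathepsin S (Ctss), which trims the class II invariant chain, from 1312, 1235 and 1217 to 2711, 3039.7 and 2696 (2.24-fold, adjusted p = 0.0184) and Gusb, beta-glucuronidase, from 183, 169 and 195 to 305, 358 and 289 (1.73-fold, adjusted p = 0.0199). From the iron list, Slc11a1, which pumps iron out of the macrophage phagosome, rose 2.93-fold (53.3, 60.6 and 36.4 to 163, 133 and 136, adjusted p = 0.00981). Regulators of actin that blood cells use rose in 5 of 34 cases and fell in 0, led by Was, the Wiskott-Aldrich protein, at 47.8, 38.6 and 38.5 and 127, 138 and 131 (3.19-fold, adjusted p = 0.00242), and including Lcp1 (L-plastin), 791, 793 and 801 to 1515, 1396 and 1339 (1.78-fold, adjusted p = 0.0347). Each gene named in these sentences separated the groups without overlap, as 37.5% of all tested probe sets did. They were named for a small p or a large change, so the separation adds no support. Among the 10 called genes here, Fcgr2b, Lgals3, Ctsz, Slc11a1 and Was passed in each of the 9 fits that drop 1 array. The calls lost were 5, 5 and 4 without saline replicates 1, 2 and 3 and 5, 5 and 1 without OVA replicates 1, 2 and 3, and 1, 2 and 1 without agonist replicates 1, 2 and 3. Lyz2 had the highest adjusted p among these fits, 0.139.

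Antigen presentation by MHC class II rose in 8 of 13 tested genes, with 0 falls and a median log2 change of 1.07. H2-Ab1, a class II beta chain, read 778, 633 and 463 in saline and 1704, 1739 and 1726 in OVA lung, 2.82-fold higher (log2 change 1.50 ± 0.21 SE, adjusted p = 0.0123), and the OVA arrays lay closer together than the saline arrays. H2-Aa, the alpha chain, went from 1631, 1669 and 1374 to 3207, 3352 and 3248 (2.11-fold, adjusted p = 0.0109), and the peptide exchangers H2-DMa and H2-DMb1 rose 2.54-fold and 2.18-fold. Ifi30, a thiol reductase of the antigen-processing compartment, rose from 175, 171 and 193 to 575, 486 and 387 (2.66-fold, adjusted p = 0.0113). Of 15 class I and immunoproteasome genes 4 rose and 0 fell: Psmb8 went from 562, 624 and 574 to 976, 891 and 928 (1.59-fold, adjusted p = 0.0134) and Tap1, the peptide transporter, from 311, 318 and 311 to 476, 441 and 497 (1.50-fold, adjusted p = 0.0180). Of the 7 called genes of antigen presentation named here, H2-Aa and Ifi30 stayed called without any 1 of the 9 arrays. Without saline replicates 1, 2 and 3 in turn 4, 3 and 4 calls were lost, and 5, 2 and 0 without OVA replicates 1, 2 and 3. The highest adjusted p in these fits was 0.0844 (H2-DMb1).

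Interferon response genes rose in 6 of 29 tested cases and fell in 0, with 23 not passing. Ifit1 and Ifit2, which bind viral RNA, went from 57.4, 59.7 and 53.0 to 160.1, 149 and 188 (2.91-fold, adjusted p = 0.0225) and from 42.5, 39.1 and 42.2 to 60.7, 63.0 and 77.4 (at least 1.49-fold, adjusted p = 0.0334). Isg15, the ubiquitin-like interferon product, was undetected in saline lung and read 97.1, 52.9 and 83.8 in OVA lung (at least 1.68-fold, adjusted p = 0.0126). In these 3 genes OVA replicate 3 was not the lowest of the OVA arrays. Iigp1, a GTPase of interferon gamma responses, varied among OVA arrays at 523, 289 and 619 against 213, 194 and 247 in saline and did not pass (adjusted p = 0.0628). Promoters of Isg15 and Ifit1, both called higher, are printed with the core of the interferon response element (GAAA and GAAA with 2 bases between, either strand) in capitals. Both are the 250 bases before the RefSeq start in GRCm38.p6, Isg15 at chr4:156200819-156201068 on the minus strand and Ifit1 at chr19:34640639-34640888 on the plus strand.
Isg15: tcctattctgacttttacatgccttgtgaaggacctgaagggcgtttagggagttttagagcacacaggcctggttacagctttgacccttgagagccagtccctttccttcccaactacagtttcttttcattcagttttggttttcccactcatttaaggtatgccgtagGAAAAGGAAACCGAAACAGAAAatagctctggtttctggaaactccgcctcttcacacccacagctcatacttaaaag
Ifit1: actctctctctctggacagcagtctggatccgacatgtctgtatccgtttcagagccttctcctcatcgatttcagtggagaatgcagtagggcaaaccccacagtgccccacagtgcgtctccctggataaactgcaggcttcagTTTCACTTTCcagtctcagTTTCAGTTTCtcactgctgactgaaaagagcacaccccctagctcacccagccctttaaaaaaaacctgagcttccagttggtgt
Isg15 has 3 overlapping matches, 78 to 66 bases before the start, and Ifit1 has 2, at 104 and 85 bases. Of the 24 tested interferon genes with a promoter entry, 9 (37.5%) held the core, against 3.46% of all genes in the table. The share was 3.26% among genes tested on the array, 5.75% among those called higher and 2.68% among those called lower. Among these 3 called genes, 0 kept the call in all 9 leave-out fits. Leaving out saline replicates 1, 2 and 3 ended 2, 2 and 2 calls, and OVA replicates 1, 2 and 3 3, 2 and 1. For Ifit2 the adjusted p rose to 0.102.

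Of 10 tested acute phase and transport proteins, many of them plasma proteins, 5 rose and 0 fell. Lcn2, which binds bacterial iron carriers, read 497, 548 and 572 in saline and 2608, 2944 and 1999.6 in OVA lung, 4.62-fold higher (log2 change 2.21 ± 0.39 SE, adjusted p = 0.0212), while its dimmer probe set did not pass (log2 change 0.39, adjusted p = 0.184). Serpina3n, an inhibitor of neutrophil proteases, went from 237, 258 and 409 to 1301, 1369.7 and 602 (3.50-fold, adjusted p = 0.0363), and Cp, the copper ferroxidase ceruloplasmin, from 529, 562 and 646 to 1356, 1445 and 912 (2.10-fold, adjusted p = 0.0369). Hp, haptoglobin, which is also an acute phase protein, read 3935, 4476 and 4982 in saline and 3719, 3630.4 and 3270.4 in OVA lung and did not pass (adjusted p = 0.0960). Of 24 complement and coagulation genes 6 rose and 3 fell, or 1 fell with equal array medians. Cfp (properdin), which stabilises the alternative pathway, rose from 48.3, 43.8 and 56.5 to 188, 184 and 147 (3.49-fold, adjusted p = 0.00892), F3 (tissue factor), which starts clotting, from 263, 278 and 235 to 524, 494 and 422 (1.85-fold, adjusted p = 0.0149), and F10 (factor X) from 27.0, 25.3 and 20.5 to 66.6, 72.0 and 70.6 (at least 1.55-fold, adjusted p = 0.0236). The falls were in Thbd (thrombomodulin), an anticoagulant receptor named after its values were seen, from 1843, 1831 and 1826 to 1042, 1246 and 1477 (1.48-fold, adjusted p = 0.0440), the thrombin receptor F2r (1.28-fold, adjusted p = 0.0430) and Plau, the plasminogen activator urokinase, from 77.2, 84.9 and 85.2 to 52.2, 53.8 and 36.1 (1.77-fold, adjusted p = 0.0341). Of the 9 called genes here, Cfp held whichever of the 9 arrays was dropped. Dropping saline replicates 1, 2 and 3 lost 8, 7 and 8 calls, and dropping OVA replicates 1, 2 and 3 lost 8, 8 and 1, and 3, 4 and 1 without agonist replicates 1, 2 and 3. Adjusted p then reached 0.137, for F2r.

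Limma called 0 of 16 tested T cell and NK cell genes, with 2 at an unadjusted p of at most 0.05. Thy1, a surface protein of T cells and some stroma, read 63.1, 68.1 and 47.9 and 143, 114 and 136 (adjusted p = 0.0602) and Gata3, the type 2 regulator, 84.2, 84.0 and 84.3 and 89.6, 96.8 and 108 (log2 change 0.21 ± 0.12 SE, adjusted p = 0.263). B cell and plasma cell genes rose in 4 of 20 cases and fell in 0. Jchain, which joins IgA and IgM for export, read 172, 149.9 and 159 in saline and 1833, 1341 and 1083 in OVA lung (8.66-fold, adjusted p = 0.0261), Irf4, needed for plasma cells, was undetected in saline lung and read 196, 149.7 and 71.0 (at least 2.85-fold, adjusted p = 0.0369), and Btk, the kinase of the B cell receptor, went from 86.6, 76.5 and 71.0 to 133, 134 and 109.6 (1.61-fold, adjusted p = 0.0429). The brightest probe set of Ighm, the IgM heavy chain, read 1177, 1253 and 944 and 8071, 7108 and 2451 and did not pass (adjusted p = 0.0766), although the groups lay apart. The 10 other tested probe sets of Ighm gave log2 changes from 0.11 to 9.43, of which 5 passed. Of 16 tested neutrophil genes Lcn2 and Chil1 rose, both of which epithelium also makes, and Ltf, lactoferrin, read 96.2, 91.9 and 164 and 305, 212 and 189 without passing (adjusted p = 0.0685). Of 6 mast cell and basophil genes 1 fell, Gata2, which endothelium shares, from 499, 489 and 575 to 284, 312 and 313 (1.72-fold, adjusted p = 0.0382), while Hdc, the histamine-forming enzyme, read 214, 204 and 239 and 292, 349.8 and 298 (adjusted p = 0.115). Of the 4 called genes here, 0 passed in each of the 9 fits that drop 1 array. The calls lost were 4, 4 and 3 without saline replicates 1, 2 and 3 and 4, 4 and 2 without OVA replicates 1, 2 and 3, and 1, 3 and 0 without agonist replicates 1, 2 and 3. Btk had the highest adjusted p among these fits, 0.137.

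Metabolic lists held calls in both directions. Among glycolysis and gluconeogenesis genes 4.76% fell and among fatty acid genes 3.70% rose, near the 4.67% lower and 4.82% higher of all genes. Median log2 changes were 0.0004 for glycolysis and gluconeogenesis, 0.24 for the respiratory chain and −0.14 for fatty acid handling. For glutathione and antioxidant genes the median was 0.03, against −0.08 over all genes. Glycolysis and gluconeogenesis together held 4 rises and 1 fall among 21 tested genes: besides Fbp1 of gluconeogenesis, Pfkp, a phosphofructokinase, went from 79.1, 84.7 and 88.2 to 154, 143 and 140.1 (1.74-fold, adjusted p = 0.00892), Ldha from 1210.3, 1174 and 1214 to 1783, 1833 and 1618 (1.45-fold, adjusted p = 0.0156) and Pgk1 from 395, 383 and 341 to 586, 691 and 628 (1.70-fold, adjusted p = 0.0225). Pck1, the entry enzyme of gluconeogenesis, fell from 56.0, 58.8 and 44.0, close to the detection limit, to a mean of 17.2 with all 3 OVA arrays below it (log2 change −1.68 ± 0.32 SE, adjusted p = 0.0244). Respiratory chain genes rose in 8 of 41 cases by modest amounts and fell in 0: Cox5b from 679.9, 695 and 671 to 1004, 947 and 892 (1.39-fold, adjusted p = 0.0185) and Ndufb8 from 307, 288 and 295 to 531, 458 and 401 (1.55-fold, adjusted p = 0.0225). Fatty acid handling showed 4 falls and 1 rise among 27: Cpt1a, which admits fatty acids to mitochondria, fell from 779.9, 736 and 767 to 517, 468 and 535 (1.50-fold, adjusted p = 0.0196), and the lipid carrier Fabp5 rose from 251, 204 and 216 to 362, 397 and 361 (1.67-fold, adjusted p = 0.0225). Among 36 glutathione and antioxidant genes 3 rose (8.33%, against 4.82% of all genes) and 5 fell (13.9%, against 4.67%). Gclc, the limiting enzyme of glutathione synthesis, rose from 539, 507 and 424 to 1038, 1076 and 812 (1.98-fold, adjusted p = 0.0134) and Prdx4, the peroxiredoxin of the secretory pathway, from 209, 213 and 214 to 591, 513 and 378 (2.29-fold, adjusted p = 0.0109), whereas Cat, catalase of the peroxisome, fell from 719.7, 697 and 746 to 356, 324 and 421 (1.98-fold, adjusted p = 0.0115), while a dimmer probe set of Cat did not pass (log2 change −0.17, adjusted p = 0.722). Of the 11 called metabolic genes named here, Pfkp, Prdx4 and Cat stayed called without any 1 of the 9 arrays. Without saline replicates 1, 2 and 3 in turn 6, 7 and 7 calls were lost, and 8, 6 and 0 without OVA replicates 1, 2 and 3. The highest adjusted p in these fits was 0.0786 (Pck1).

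Cell cycle and DNA replication genes rose in 10 of 43 tested cases and fell in 1 (median log2 change 0.32). Hmgb2, a chromatin protein of dividing cells, read 109.9, 90.9 and 86.1 in saline and 204, 195 and 177 in OVA lung, 2.02-fold higher (log2 change 1.01 ± 0.12 SE, adjusted p = 0.00892). Pcna, the clamp of DNA polymerase, rose from 428, 423 and 384 to 648, 603 and 544 (1.45-fold, adjusted p = 0.0226), the replicative helicase subunit Mcm3 from 258, 276 and 235 to 385, 394 and 321 (1.43-fold, adjusted p = 0.0338) and the spindle checkpoint gene Mad2l1 from 46.5, 39.4 and 48.3 to 121, 87.9 and 89.2 (2.20-fold, adjusted p = 0.0137). The fall was in Cdkn1c, an inhibitor of the cell cycle, from 388, 368 and 426 to 196, 183 and 263 (1.86-fold, adjusted p = 0.0334). Each of these genes separated the groups without overlap, as 37.5% of all tested probe sets did. They were named for a small p or a large change, so the separation adds no support. The Hmgb2 promoter is shown for its CCAAT boxes, a motif common in cell cycle promoters, in capitals on either strand, as the 250 bases before the RefSeq start in GRCm38.p6 at chr8:57511593-57511842 on the plus strand.
Hmgb2: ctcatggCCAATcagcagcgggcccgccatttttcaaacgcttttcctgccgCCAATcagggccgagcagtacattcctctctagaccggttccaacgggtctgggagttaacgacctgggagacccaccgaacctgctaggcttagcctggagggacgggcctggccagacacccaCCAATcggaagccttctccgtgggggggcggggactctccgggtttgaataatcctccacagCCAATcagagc
It holds 4 boxes. Of 35 tested cell cycle genes with a promoter entry 24 held at least 1 (68.6%), against 37.5% of all genes in the table and 40.1% of those tested on the array. The share was 42% among genes called higher, 39.3% among those called lower and 64.3% among 14 clock genes. Genes of the endoplasmic reticulum and secretory pathway rose in 7 of 43 cases and fell in 0, such as Ddost, of the complex that attaches sugars to proteins, from 94.8, 90.3 and 78.3 to 188, 171 and 139 (1.88-fold, adjusted p = 0.0171) and Sec61b of the translocation channel from 543, 571 and 589 to 1053, 988 and 807 (1.66-fold, adjusted p = 0.0261). Of 20 ribosomal protein genes 1 rose, Rpsa (1.53-fold, adjusted p = 0.0305). Of 30 proteasome genes 1 rose, Psma5 (1.31-fold, adjusted p = 0.0312). Of 30 cytosolic chaperones 1 fell, Cct2 (1.66-fold, adjusted p = 0.0236). These 3 counts lie near the shares over all genes, 4.82% higher and 4.67% lower. Of the 10 called genes named here, Hmgb2 kept the call in all 9 leave-out fits. Leaving out saline replicates 1, 2 and 3 ended 7, 9 and 8 calls, and OVA replicates 1, 2 and 3 8, 8 and 1, and 0, 3 and 0 without agonist replicates 1, 2 and 3. For Mcm3 the adjusted p rose to 0.115.

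**Figure D3:**
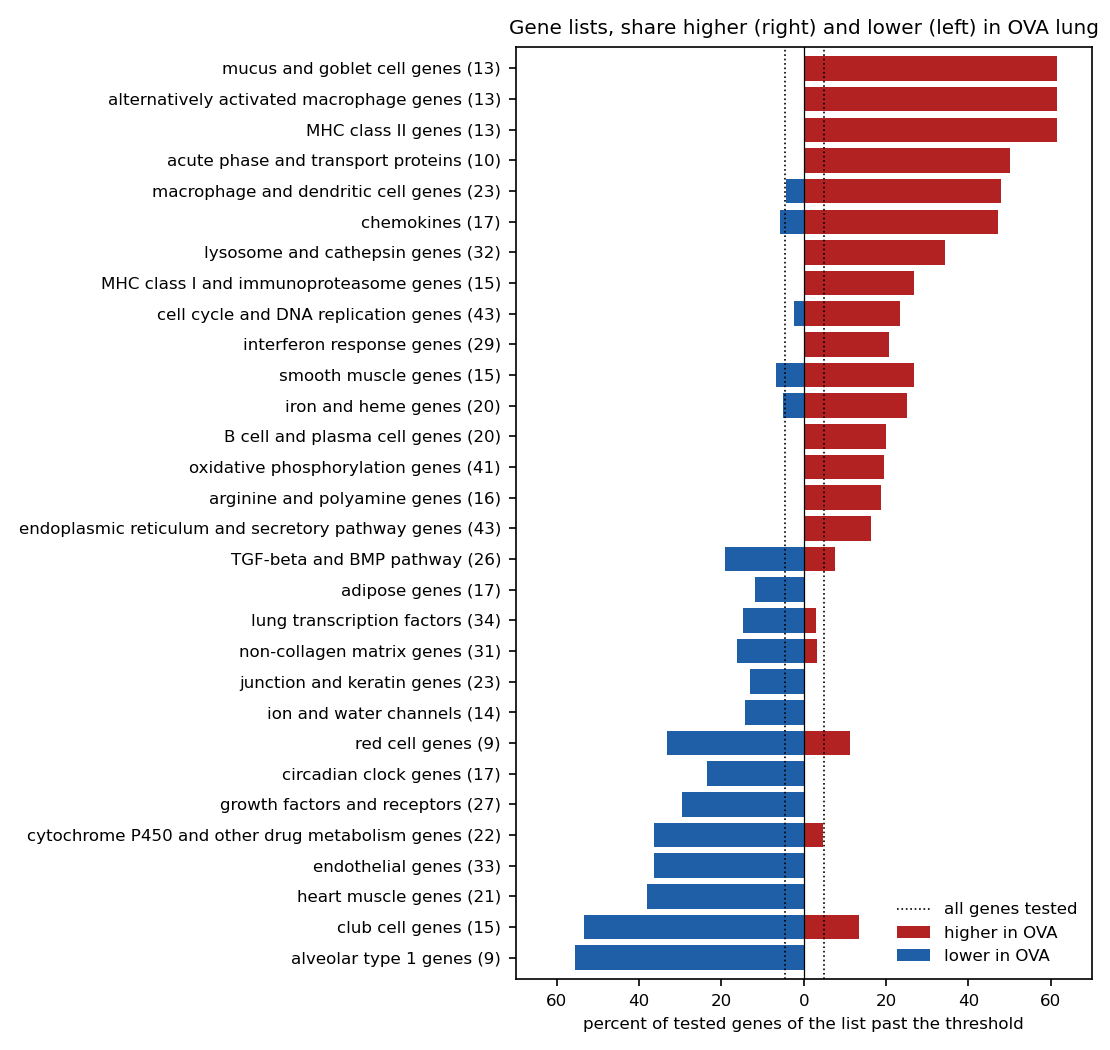
Percent of the tested genes of each list that were called higher (red, to the right) or lower (blue, to the left) in OVA lung, for the 30 lists of at least 9 tested genes at both ends of the order by that difference, with the number tested in brackets. Dotted lines mark the 4.82% higher and 4.67% lower among all 5949 genes; mucus, alternatively activated macrophage and MHC class II genes reach 61.5% higher, and alveolar type 1 genes 55.6% lower.

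Of 33 tested endothelial genes 12 fell (8 with equal array medians) and 0 rose, against 4.67% called lower among all genes. Kdr, the VEGF receptor 2, read 1166, 1174 and 1181 in saline and 842, 786 and 746 in OVA lung, 1.49-fold lower (log2 change −0.57 ± 0.08 SE, adjusted p = 0.0135). Cdh5, the cadherin of endothelial junctions, fell from 2406, 2589 and 2581 to 1642, 1739 and 1921 (1.43-fold, adjusted p = 0.0199) and Eng (endoglin), a co-receptor of the TGF-beta family, from 3934, 4040.5 and 4427 to 2643, 2759.9 and 3084 (1.46-fold, adjusted p = 0.0199). Calcrl, which with a partner forms the adrenomedullin receptor, was 1.32-fold lower (adjusted p = 0.0290). These 4 genes were bright on each array and fell by less than 2-fold. The summed intensity of the 33 genes was 30560.1 to 30813 in saline and 22357 to 24914 in OVA lung. Of 22 Wnt and Notch genes 2 fell (9.09%, against 4.67% of all genes) and 0 rose. Hey1, a Notch target, fell from 423, 438 and 431 to 274, 269.6 and 318 (1.50-fold, adjusted p = 0.0150). Of 26 TGF-beta and BMP genes 5 fell and 2 rose: Smad6, an inhibitor of BMP signals, fell from 1272, 1218 and 1251 to 705, 767 and 963 (1.55-fold, adjusted p = 0.0336), and Tgfbi, a secreted TGF-beta target, rose from 232, 217 and 181 to 506, 513 and 415 (2.28-fold, adjusted p = 0.0296). Of these 7 called genes, 0 held whichever of the 9 arrays was dropped. Dropping saline replicates 1, 2 and 3 lost 6, 7 and 7 calls, and dropping OVA replicates 1, 2 and 3 lost 6, 7 and 0. Adjusted p then reached 0.109, for Smad6.

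Growth factors and their receptors fell in 8 of 27 tested cases and rose in 0. Fgf1 read 686, 686 and 704 in saline and 349, 329.9 and 457 in OVA lung, 1.85-fold lower (log2 change −0.89 ± 0.17 SE, adjusted p = 0.0249), and Fgf7, the keratinocyte growth factor of stroma, went from 131, 110.0 and 117 to 81.2, 78.3 and 85.6 (1.46-fold, adjusted p = 0.0272). Igfbp6, which binds insulin-like growth factor 2, fell from 1461, 1381 and 1736 to 771, 872 and 951 (1.76-fold, adjusted p = 0.0245) and Pdgfra, the receptor of fibroblast-like cells, from 1309, 1241 and 1513 to 809, 853 and 949 (1.55-fold, adjusted p = 0.0239). A probe set of Igf1 rose from the floor, at 1.29, −5.10 and 6.19 and 156, 175 and 84.8 (at least 2.95-fold, adjusted p = 0.0225), and stands outside that count because another probe set of the gene is brighter. That brighter probe set did not pass, with means of 305.3 in saline and 314.5 in OVA lung and overlapping groups (log2 change 0.07 ± 0.27 SE, adjusted p = 0.880). Matrix genes other than collagens fell in 5 of 31 cases and rose in 1: Lama3, a laminin chain of epithelial basement membrane, fell from 272, 256 and 269 to 135, 134 and 167 (1.84-fold, adjusted p = 0.0155), the small proteoglycan Dcn (decorin) from 1727, 1639 and 1851 to 1210.5, 1207 and 1254 (1.42-fold, adjusted p = 0.0239), and Tnxb, tenascin X, from 513, 392 and 486 to 119, 189.9 and 246 (2.60-fold, adjusted p = 0.0292). A dimmer probe set of Tnxb fell as well, from 209.8, 202 and 205 to 88.4, 112 and 111 (adjusted p = 0.00892). It kept its call in each of the 9 fits that leave out 1 array. Among 26 collagen genes 2 rose and 2 fell. Col6a1, a chain of beaded collagen VI, rose from 1216, 1248 and 1239 to 1693, 1755 and 1736 (1.40-fold, adjusted p = 0.0199), and Col4a5 of basement membrane fell from 156, 150.4 and 194 to 71.8, 78.6 and 107 (1.96-fold, adjusted p = 0.0285). Smooth muscle genes rose in 4 of 15 cases and fell in 1: Myl9, a myosin light chain, rose from 408, 413 and 467 to 583, 678 and 612 (1.45-fold, adjusted p = 0.0225) and Tagln from 646, 824 and 868 to 1143, 1256 and 1084 (1.50-fold, adjusted p = 0.0323), while the integrin chain Itga8 fell from 163, 146 and 124 to 57.7, 52.6 and 98.0 (2.15-fold, adjusted p = 0.0354). The counts that follow are of the 13 called genes with values on each array, by the probe set given first. Of these, 0 passed in each of the 9 fits that drop 1 array. The calls lost were 13, 13 and 12 without saline replicates 1, 2 and 3 and 13, 13 and 0 without OVA replicates 1, 2 and 3, and 0, 2 and 0 without agonist replicates 1, 2 and 3. Itga8 had the highest adjusted p among these fits, 0.121.

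Of 9 tested genes of the flat alveolar type 1 cells 5 fell and 0 rose, and of 19 genes of the surfactant-making type 2 cells 4 fell and 2 rose, or 2 fell with equal array medians. The difference between the lists was not tested. Hopx, a type 1 regulator, read 4460.1, 5042 and 5301 in saline and 3231, 3449 and 3933 in OVA lung, 1.40-fold lower (adjusted p = 0.0379), Cav1, caveolin 1, which endothelium shares, fell from 3158, 3444 and 3110.0 to 2358, 2383 and 2519.7 (1.34-fold, adjusted p = 0.0297) and Emp2 from 1950.2, 1732 and 2026 to 1289, 1149.9 and 1461 (1.47-fold, adjusted p = 0.0308). Pdpn, podoplanin, another type 1 gene, read 235, 247 and 216 and 287, 319.6 and 265 and did not pass (adjusted p = 0.0785). Of the surfactant proteins, Sftpb fell from 3772, 4121 and 4164 to 2538, 2895 and 3175 (1.41-fold, adjusted p = 0.0369) and Sftpd, which binds microbes, read 83.0, 94.9 and 64.4 and 138, 161 and 122 without passing (adjusted p = 0.155). Pon1, a plasma esterase in the type 2 list, fell from 378, 396 and 482 to 53.5, 8.04 and 87.9 (log2 change −3.63 ± 0.82 SE, adjusted p = 0.0356), with 1 OVA array under the limit. Of 23 junction and keratin genes 3 fell (1 with equal array medians), all of tight junctions: Tjp1 from 1537, 1483 and 1620.0 to 1012, 1089.8 and 1185 (1.41-fold, adjusted p = 0.0259), F11r from 1401, 1373 and 1369.7 to 1019, 1019 and 1155 (1.30-fold, adjusted p = 0.0371) and Ocln (occludin) from 277, 250.1 and 284 to 175, 171 and 189.5 (1.51-fold, adjusted p = 0.0371). The water channel Aqp1, of capillary endothelium, fell 1.51-fold (adjusted p = 0.0261). Of the 9 called genes here, 0 stayed called without any 1 of the 9 arrays. Without saline replicates 1, 2 and 3 in turn 9, 9 and 9 calls were lost, and 9, 8 and 1 without OVA replicates 1, 2 and 3, and 1, 5 and 0 without agonist replicates 1, 2 and 3. The highest adjusted p in these fits was 0.125 (Hopx).

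Genes of heart muscle, red cells and fat were counted as well. Of 21 tested heart muscle genes, which in mice are also expressed in the wall of the pulmonary veins, 8 fell and 0 rose, and their summed intensity was 6866 to 8143 in saline and 5491 to 6509 in OVA lung. Myl7, the atrial light chain, read 743, 805 and 929 and 466, 386 and 476 (1.86-fold lower, adjusted p = 0.0346), Tnnt2, troponin T, 245, 242 and 300.2 and 156, 146 and 138 (1.78-fold, adjusted p = 0.0278) and Atp2a2, the calcium pump, 261, 261 and 315 and 163, 191 and 179 (1.57-fold, adjusted p = 0.0219). Their part in the other falls was not tested. Red cell genes fell in 3 of 9 cases and rose in 1: the alpha globin Hba-a1 fell from 8639, 10077 and 8786 to 5459, 6129.8 and 5786 (1.58-fold, adjusted p = 0.0178) and the beta globin Hbb-b2, a near copy of its neighbour gene, from 3382, 3911 and 3257 to 2095, 2373 and 2293 (1.56-fold, adjusted p = 0.0347), whereas Car2, a carbonic anhydrase that other cells share, rose from 606, 604 and 627 to 985, 1052 and 930.3 (1.61-fold, adjusted p = 0.0311). Adipose genes fell in 2 of 17 cases (11.8%, against 4.67% of all genes), or in 1 with equal array medians. Adipoq fell from 113, 128 and 118 to 69.7, 72.3 and 81.8 (1.60-fold, adjusted p = 0.0444). As a list they did not move: the median log2 change was −0.03, against −0.08 over all genes. Their summed intensity was 12909 to 13498 in saline and 12913 to 13699 in OVA lung. Of the 7 called genes here, 0 kept the call in all 9 leave-out fits. Leaving out saline replicates 1, 2 and 3 ended 6, 7 and 7 calls, and OVA replicates 1, 2 and 3 7, 6 and 5, and 0, 1 and 1 without agonist replicates 1, 2 and 3. For Adipoq the adjusted p rose to 0.139.

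Clock genes fell in 4 of 17 tested cases and rose in 0. With equal array medians 2 fell. Nr1d1, the repressor REV-ERB alpha, read 681, 673 and 808 in saline and 272, 257 and 349.6 in OVA lung, 2.47-fold lower (log2 change −1.31 ± 0.17 SE, adjusted p = 0.00975). Dbp and Tef, which bind the same D-box element, fell from 369, 286 and 425 to 179.9, 167 and 216 (1.91-fold, adjusted p = 0.0334) and from 1086, 1025 and 1208 to 522, 672 and 639 (1.82-fold, adjusted p = 0.0379), and Rora from 194, 175 and 193 to 121, 103 and 146 (1.53-fold, adjusted p = 0.0410). The labels give no hour of collection for either group. Of 29 immediate early genes, which respond quickly to stimuli, 1 fell, Jun, from 405, 401 and 418 to 299, 248 and 294 (1.46-fold, adjusted p = 0.0455). That share, 3.45%, lies under the 4.67% called lower among all genes. Among 34 lung transcription factors 5 fell and 1 rose: Elf3, an epithelial factor induced by inflammation, went from 109.5, 44.9 and 63.5 to 201, 158 and 173 (2.60-fold, adjusted p = 0.0323) and Tbx3 from 237, 291 and 324 to 139.9, 184 and 177 (1.70-fold lower, adjusted p = 0.0334). Of the 7 called genes here, Nr1d1 held whichever of the 9 arrays was dropped. Dropping saline replicates 1, 2 and 3 lost 5, 6 and 6 calls, and dropping OVA replicates 1, 2 and 3 lost 6, 6 and 4, and 1, 6 and 0 without agonist replicates 1, 2 and 3. Adjusted p then reached 0.126, for Tef.

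**Figure D4:**
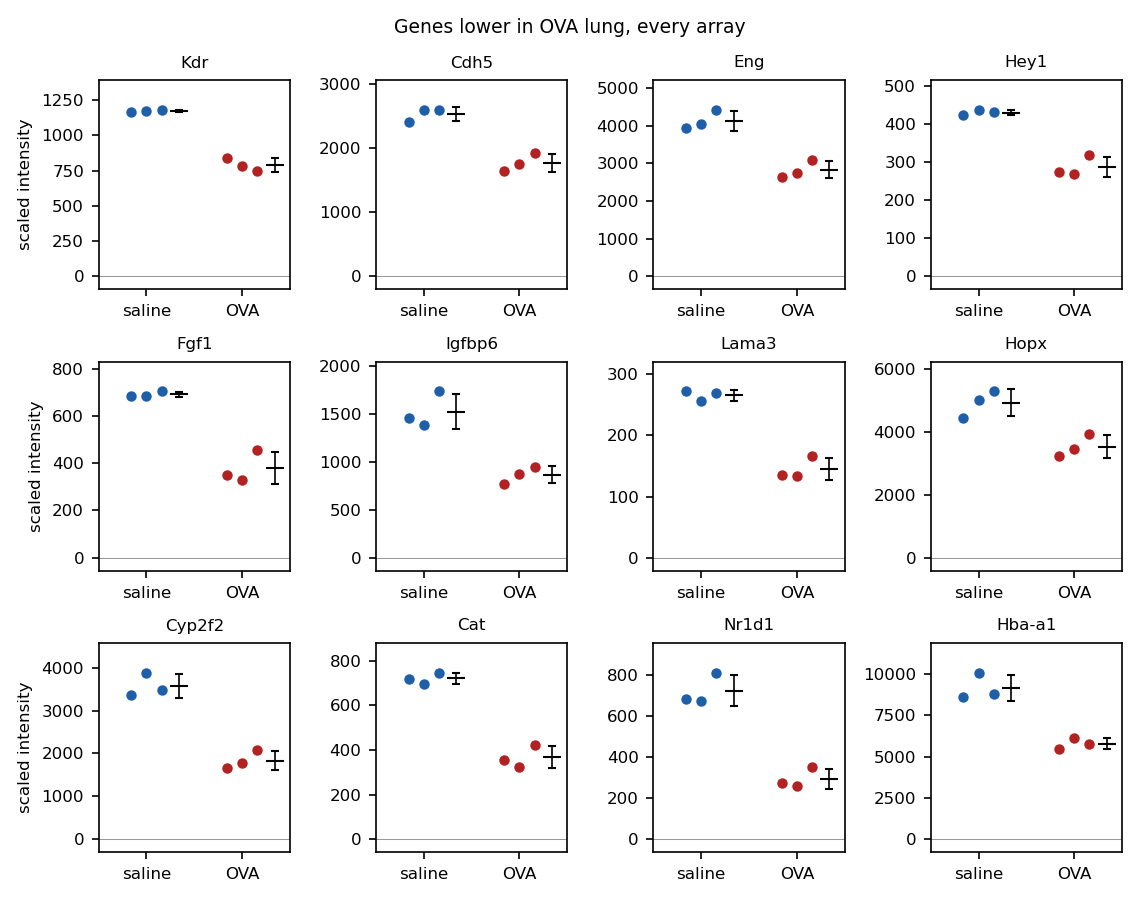
Scaled intensity of 12 genes lower in OVA lung on each array, saline replicates 1 to 3 in blue and OVA replicates 1 to 3 in red from left to right, with the mean and SD of 3 arrays in black. Each axis is linear and starts at or just under 0; the groups are apart in every panel, and Nr1d1 alone among these 12 genes shows a fall of more than 2-fold.

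**Figure D5:**
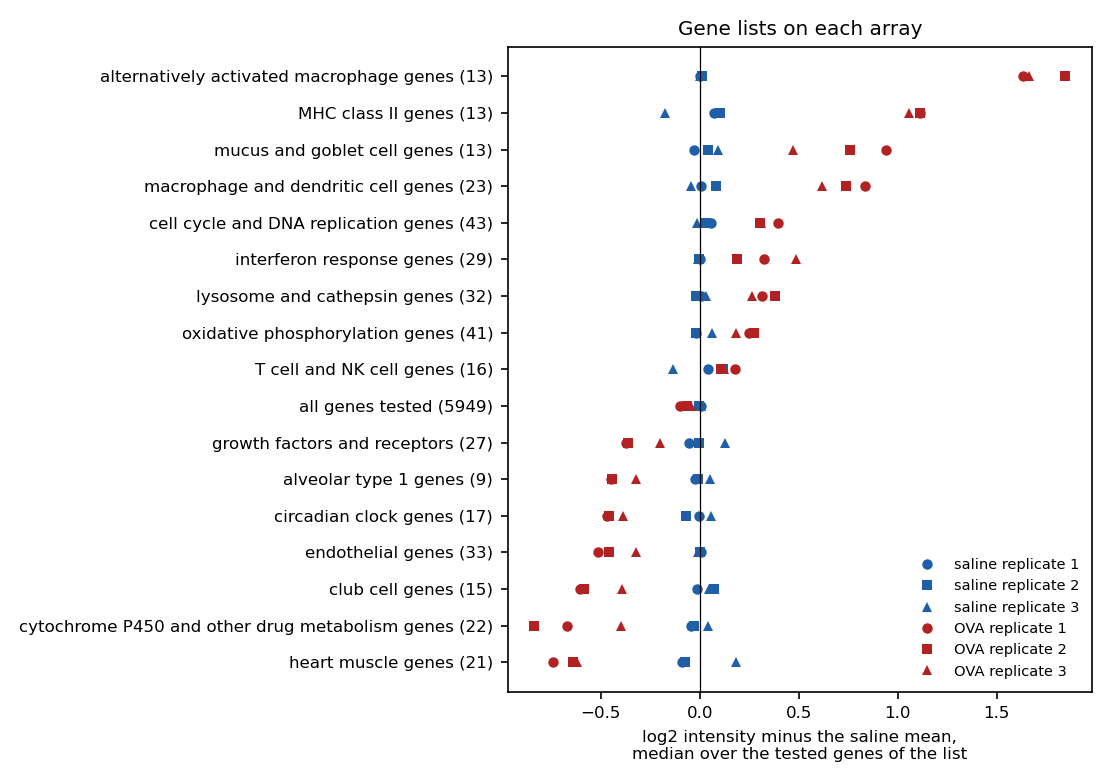
Median over the tested genes of a list (number in brackets) of the log2 intensity minus that gene's mean over the saline arrays, for each of the 6 arrays. All 3 OVA arrays lie above all saline arrays for alternatively activated macrophage, MHC class II, mucus and macrophage genes and below them for endothelial, club cell and heart muscle genes, and OVA replicate 3 is the nearest to saline in most of these lists.

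Several of the largest log2 changes came from probe sets with 1 group under the floor or under the detection limit. Chaf1a, a chromatin assembly factor, read −107, −155 and −137 in saline and 89.0, 102 and 53.8 in OVA lung, for which only a rise of at least 1.75-fold can be stated (adjusted p = 5.45e-05). Usp5, a ubiquitin protease, went from 8.59, −44.6 and −148 to 176, 144 and 51.3 (at least 2.43-fold, adjusted p = 0.00892), with its saline arrays spread widely. On the falling side Pax4 read 75.9, 91.5 and 71.5 and −33.3, −98.1 and −92.1 (at least 1.76-fold lower, adjusted p = 1.06e-05) and Aanat, which makes a melatonin precursor, 241, 262 and 179.8 and 38.2, 33.3 and 28.8 (at least 5.01-fold, adjusted p = 0.0171). A dim probe set of Six4 fell from 84.5, 72.0 and 99.2 to −20.6, 2.88 and −5.64 (at least 1.88-fold), while the gene's brightest probe set read 119.9, 132 and 121 and 89.6, 97.0 and 104 and did not pass (adjusted p = 0.0696). Probe sets of 1 gene did not always have the same sign. Of 956 genes with 2 or more tested probe sets, 135 had at least 1 call, 31 had 2 or more called and 0 were called in both directions, but in 29 of the 135 some probe set had the opposite sign. Aanat did not pass when saline replicate 1, 2 or 3 or OVA replicate 1 or 2 was dropped (adjusted p up to 0.0618). In Chaf1a, Usp5, Pax4 and the dim probe set of Six4 a group lay wholly or mostly under the floor, so fits that leave out 1 array do not show how stable they are.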

How the data were processed

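The authors' deposited values are linear intensities, with 1 value for a probe set on an array and some values below 0. For scanner software, summarization and background, the step is not given in the sources used here. Of 12488 probe sets 66 controls were left out, and 10833 of the others carry 1 gene symbol in the platform's probe table, 396 several and 1193 none. By gene ID, 10817 were found in RefSeq (GRCm38.p6), which changed 0 symbols.

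Arrays had 2% trimmed means of 138 to 240.0 as deposited, and each was scaled to their mean (factors 0.741 to 1.29). Values under 3.19 (20th percentile) were raised to it before taking log2. Testing required 3 or more of 9 arrays above 44.9 (40th percentile, the detection limit), which left 7916 (63.7%), for 5949 genes. limma 3.58.1 (lmFit, eBayes, R 4.3.3) fitted the 9 arrays together with 6 residual and 1.70 prior degrees of freedom. The p-values are two-sided and adjusted by Benjamini-Hochberg over the 7916, with a threshold of 0.05. The fit was tested on simulated data. Each fold is 2 raised to the fitted log2 change. "At least" marks genes whose dimmer group lay wholly at or below the detection limit and whose brighter group lay above it, and is how far the brighter group, averaged on the log scale, lay above that limit. The number of arrays, 3 a group, limits the precision.

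The comparison and the 59 gene lists (1446 of 1793 written genes are on the array) were chosen with earlier results of these data known. Lists are described by counts and medians, with no test. Named genes are the 30 largest called rises and 30 largest called falls with groups that do not overlap (leaving out antigen receptor segments and probe sets without a symbol, and taking 1 probe set a gene), the tested members with the smallest p of each list (at most 8), and Ptger1 to Ptger4. Genes outside this rule are said to be so. Alternatives were 2 other scalings, 2 other floors, 2 other filters, another variance prior, array weights, the 6 arrays alone, leaving out each array, the replicate number as a block, 2 other thresholds and averaging the probe sets of a gene. Promoters come from a RefSeq table of GRCm38.p6.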

Additional observations from a re-analysis of the deposited data

How the results depend on the processing

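The number of calls was 752 as reported, 1520 at an adjusted p of 0.1 (701 higher, 819 lower) and 241 with a minimum of 2-fold (193 and 48). Leaving out 1 array gave between 110 and 854 calls, 73 to 460 higher and 35 to 394 lower. With the replicate number as a block, 50 passed (39 higher, 11 lower). The labels do not say what the numbers mark. Same-numbered saline and OVA arrays correlated at 0.17, 0.11 and 0.04 in their deviations from the group means, and differently numbered ones at −0.155 to 0.04. The numbers were not taken as pairs, though these values do not settle whether they mark pairs. Scaling, floor, filter, variance prior, array weights and the fit of 6 arrays left the total, the higher and the lower counts within 1.5 times. Of 134 called probe sets named in the report, 120 passed with equal array medians, 130 with quantile normalization, 101 of 134 with no filter, 115 with the 6 arrays alone, and 15 with the block. The 134 leave out Col6a2, the dimmer probe sets of Tnxb, Col1a1 and Col3a1, and genes named after their values were seen. With equal array medians Adipoq, Arg2, F11r, F2r, Fmo1, Gata2, Gstm2, Hopx, Jun, Lyz2, Ocln, Rora, Sftpb and Tef did not pass, nor did Cxcl14 and Thbd, and with quantile normalization Arg2, Jun, Muc1 and Rora did not. With equal medians the falls were 4 rather than 8 among club cell genes, 4 rather than 8 among drug metabolism genes and 2 rather than 4 among clock genes (7, 6 and 3 with quantile normalization). Of 145 probe sets checked, called or not, 0 changed direction under any alternative run. The median log2 change over all genes was −0.08 as reported, −0.06 after quantile normalization and −0.05 with equal array medians. With a gene's probe sets averaged, 4 collagen genes rose in place of 2 and 3 glutathione genes fell in place of 5. Probe sets below the detection limit on most arrays were not tested, so most cytokines could not be judged.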

Other observations

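Some genes that belong to none of the groups above were called in OVA lung with each of the 9 arrays left out in turn, and were named after their values were seen. Reg3g, an antimicrobial lectin of epithelium, read 133, 123 and 115 in saline and 965, 1057 and 744 in OVA lung, 7.39-fold higher (limma log2 change 2.89 ± 0.37 SE, adjusted p = 0.00959). Bpifb1, a secreted airway protein related to bactericidal proteins, rose from 677, 752 and 636 to 2635, 2561 and 2083 (3.51-fold, adjusted p = 0.00942). Slc5a1, a sodium and glucose cotransporter, was undetected in saline lung and read 106, 75.1 and 75.4 in OVA lung, a rise of at least 1.88-fold (adjusted p = 0.00848), and Gpr65, a proton-sensing receptor of leukocytes, read 19.6, 28.7 and 25.5 and 81.6, 111 and 73.0, a rise of at least 1.94-fold (adjusted p = 0.00892).

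Tkt, transketolase of the pentose phosphate pathway, rose from 313, 301 and 286 to 632, 668 and 644 (2.16-fold, adjusted p = 0.00935), Me1, the cytosolic malic enzyme, from 219, 199.7 and 196 to 482, 416 and 422 (2.15-fold, adjusted p = 0.00848), and Psat1, of serine synthesis, from 57.5, 57.9 and 39.7 to 176, 156 and 119 (2.91-fold, adjusted p = 0.0104). Among the falls were Epas1, the hypoxia factor HIF-2 alpha, abundant in lung endothelium, from 1734, 1967 and 1983 to 896, 1051 and 1074 (1.88-fold, adjusted p = 0.0115), and Ltbp4, which binds latent TGF-beta in elastic fibres, from 2343, 2333 and 2278 to 1079, 1199.8 and 1497 (1.86-fold, adjusted p = 0.0124). Each of these genes separated the OVA and saline arrays without overlap, as 37.5% of all tested probe sets did. They were chosen for their calls, so the separation adds no support.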
